A study of Dorcoceras hygrometricum with 9 samples.

Results

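Transcripts of secretory peroxidases and laccases were followed in the drying leaves of Boea hygrometrica, which the labels list as Dorcoceras hygrometricum. This resurrection plant survives the desiccation of its leaves. The 25 members are the genes with at least 60 reads in total whose best database match names a peroxidase or a laccase and does not name ascorbate or glutathione, out of 24182 genes with a read and 14579 genes with at least 60. Another 17 genes matched the words with 1 to 54 reads and are not members. RNA sequencing was done on leaf tissue in 3 water states, with 3 libraries each: hydrated leaves (titled HD in the labels), leaves at 70% relative water content (RWC, leaf water as a share of that at full hydration) and leaves at 10% RWC. The plants were potted, all were of the same species, and neither a genotype nor the number of plants or the leaf age behind a library is given in the sources used here. Since the tissue was bulk leaf, fewer cells of a type and less RNA per cell cannot be told apart in any value below.

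Secretory peroxidases, also called class III peroxidases, are heme enzymes that plant cells export to the wall and the vacuole. They use hydrogen peroxide to oxidise phenolic compounds, which links lignin precursors, wall proteins and suberin phenolics to each other, and they can also produce reactive oxygen that loosens walls. Laccases are secreted copper enzymes that oxidise phenolics with molecular oxygen, and several Arabidopsis members polymerise lignin in the xylem. In drying leaves of resurrection plants the walls fold as the cells shrink, and wall stiffness is among the traits that these enzymes can alter.

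The best-match text and the KEGG text of the files did not agree on the label for all members. Among the 25, 18 carry the KEGG text peroxidase with a match of the class III kind, and are called secretory peroxidases here, and 4 are laccases, whose KEGG text names the related L-ascorbate oxidase. The other 3 are not secretory peroxidases by their texts. Bhs2171_006V1.1 has the text glutathion peroxidase, spelled without its last letter and so not left out by the rule. Bhs32_158V1.1 is a thioredoxin-dependent peroxidase with a peroxiredoxin KEGG text. Bhs257_014V1.1 has a peroxidase 31 precursor text but the KEGG text of a nucleolar complex protein, and its coding length of 2460 bases exceeds that of every class III member (789 to 1191 bases). A GO function of antioxidant activity was given to 16 of the 25 members and to 0.254% of all genes with at least 60 reads. A GO component of wall or extracellular space was given to 3 members and to 2.75% of those genes. No GO component was given to 12 members and to 51.2% of those genes. Export from the cell was not measured.

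The libraries held 6654601 to 7423965 reads in the genes tested. Values are CPM, that is read counts scaled to a common library total, with scaling for library composition, ± SD over the 3 libraries of a state, and levels are compared between genes only as CPM per kb of coding length. Log2 fold changes (drier minus wetter state) carry their SE, and adjusted p values come from edgeR's quasi-likelihood test fitted on 14585 genes, with Benjamini-Hochberg adjustment over all of them. A gene is called where its adjusted p is under 0.05. Replicate 1 of each state stood apart from replicates 2 and 3, whose mutual differences were close to sampling noise (a chi-square of 1.28 to 1.39 per gene, and of 5.04 to 8.68 where replicate 1 was in the pair). In replicate 1, 1 member was higher and 6 were lower than in the other replicates, against 1328 and 1470 of 14585 genes. Counts are therefore also given for replicates 2 and 3 alone. If these did not come from separate plants, n is 2 and the spread may be technical. Counts from those replicates alone cannot address that case, since their spread would then be technical throughout.

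Most members lost transcript as the leaf dried. At 70% RWC against hydrated leaves, 5 of 25 members were called higher, beside 34.6% of all genes tested, and 20 were called lower, beside 35.9% of all genes. At 10% RWC against hydrated leaves, 4 members were higher (42.4% of all genes) and 19 were lower (41.5% of all genes). In the late step, 10% against 70% RWC, 5 members were higher (37.1% of all genes) and 15 were lower (39.6% of all genes). The median log2 fold change of the members in these comparisons was -1.68, -2.56 and -1.20, beside -0.01, 0.01 and -0.05 over all genes. With replicates 2 and 3 alone the counts were 4 and 20, 4 and 19, and 5 and 15. With replicates 2 and 3 summed as 1 sample, the calls lost were those of the laccase Bhs370_027V1.1 at 70% RWC and of Bhs32_158V1.1 in the late step. The first 2 comparisons share the hydrated libraries. Of the members, 10 have under 60 reads outside their highest state and so met the read minimum through that state, which was the hydrated one for 9 of them. The other was the laccase Bhs649_091V1.1, which met it through 10% RWC. Among the 19 members with at least 200 reads, 5 were higher and 14 lower at 70% RWC, and 4 were higher and 13 lower at 10% RWC. That minimum is also on total reads and does not remove this selection. It keeps Bhs16650_001V1.1, for example, with 265 of its 267 reads in hydrated leaves.

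**Figure D1:**
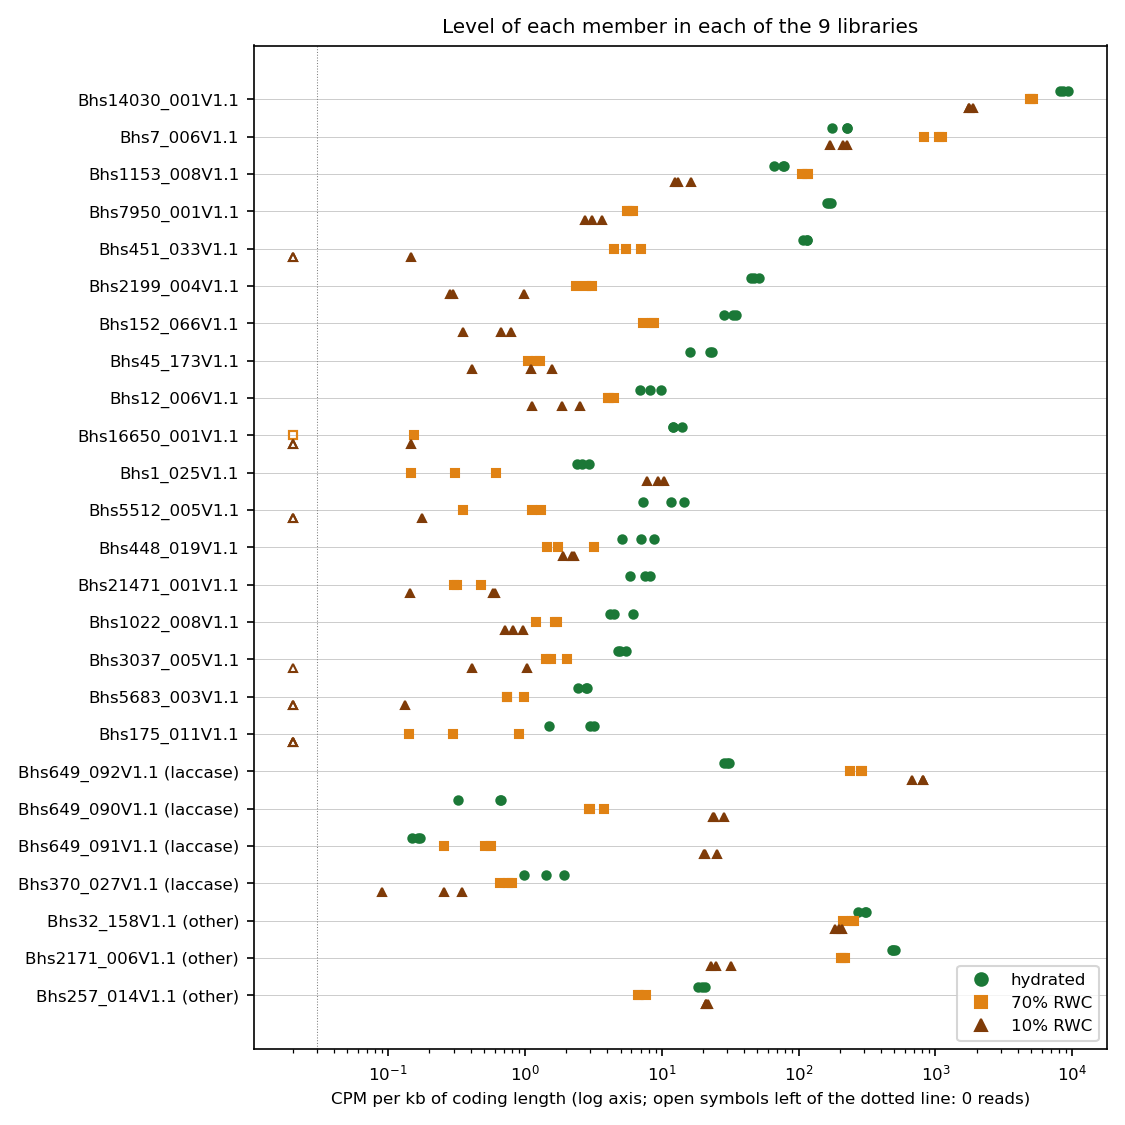
Level of each of the 25 members as CPM per kb of coding length (log axis) in the 9 libraries, with 1 symbol per library and open symbols for 0 reads. Hydrated libraries (circles) lie to the right for most peroxidases, whereas the 3 Bhs649 laccases have the 10% RWC libraries (triangles) to the right.

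A single gene, Bhs14030_001V1.1, had the highest level of the 25 members per kb of coding length in every water state. It is annotated as a secretory peroxidase and lies on scaffold 14030, positions 3289 to 4846, plus strand. Its libraries gave 9249, 7989 and 8421 CPM in hydrated leaves, 5089, 4954 and 4881 CPM at 70% RWC and 1870, 1737 and 1747 CPM at 10% RWC. The 3 states did not overlap, and every library of a drier state was below every library of a wetter state. The gene fell 1.72-fold by 70% RWC (log2 fold change -0.78 ± 0.07, adjusted p = 1.06e-08) and 4.79-fold by 10% RWC (-2.26 ± 0.07, adjusted p = 4.14e-15). Its level was 8639 ± 647 CPM per kb in hydrated leaves, rank 10 among all genes on that scale, and it stood at rank 27 at 70% RWC and rank 45 at 10% RWC.

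The summed level of the 25 members fell with it, from 9770 ± 578 CPM in hydrated leaves to 6896 ± 132 CPM at 70% RWC and 3580 ± 104 CPM at 10% RWC. Bhs14030_001V1.1 made up 87.5 ± 1.35% of that sum in hydrated leaves, 72.2 ± 2.88% at 70% RWC and 49.9 ± 3.57% at 10% RWC. The other 17 secretory peroxidases together went from 720 ± 48.6 CPM to 1215 ± 177 CPM and then to 249 ± 32.4 CPM, and most of the 70% RWC sum belonged to Bhs7_006V1.1. Laccases grew from 54.0 ± 1.87 CPM to 466 ± 48.9 CPM and 1384 ± 143 CPM. Sums and shares of CPM are of reads, to which longer genes give more, and they are descriptions that carry no test.

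**Figure D2:**
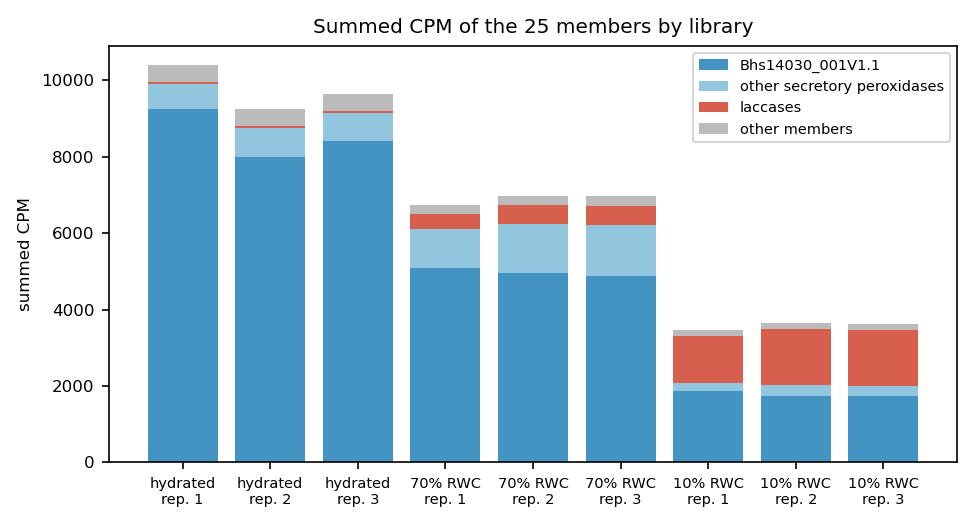
Summed CPM of the 25 members in each of the 9 libraries, split into Bhs14030_001V1.1, the other secretory peroxidases, the laccases and the other 3 members (stacked bars from 0). The bars shrink from hydrated to 10% RWC libraries while the laccase part grows from a mean of 54.0 to 1384 CPM.

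Among the 18 secretory peroxidases, 2 were called higher and 16 lower at 70% RWC, beside 34.6% and 35.9% of all genes. At 10% RWC 1 was higher and 16 were lower, beside 42.4% and 41.5%. In the late step 1 was higher, 12 were lower and 5 were not called, beside 37.1% higher and 39.6% lower of all genes. Most of the 9 members that met the read minimum through the hydrated state are among these 18 genes. For such genes the rule itself favoured lower calls against hydrated leaves. The 10 genes that fell in all 3 comparisons include several of the family's better expressed genes.

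Bhs7950_001V1.1 (peroxidase 2 by its match) gave 151, 158 and 149 CPM in hydrated leaves, 5.29, 5.12 and 5.60 CPM at 70% RWC and 2.53, 3.37 and 2.84 CPM at 10% RWC. The drop came almost whole with the first drying step. It was 28.5-fold lower at 70% RWC (log2 fold change -4.83 ± 0.10, adjusted p = 3.46e-17) and lost a further 0.87 ± 0.17 log2 units in the late step (log2 fold change -0.87, adjusted p = 2.00e-04). Bhs451_033V1.1 (peroxidase 21) gave 106, 105 and 98.7 CPM in hydrated leaves and 6.40, 4.98 and 4.12 CPM at 70% RWC. At 10% RWC its 3 libraries held 1 read in all, against 2238 reads in the hydrated libraries, a scaled read ratio of 4.39e-04 with an exact 95% counting interval of 1.11e-05 to 0.00245. Its fall continued through both steps (log2 fold change -4.31 ± 0.13 at 70% RWC, adjusted p = 4.81e-15, and adjusted p = 2.31e-09 in the late step).

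Bhs2199_004V1.1 (peroxidase 3) fell from 45.3 ± 3.09 CPM to 2.60 ± 0.361 CPM at 70% RWC and 0.494 ± 0.379 CPM at 10% RWC, with no overlap between states. Bhs152_066V1.1 (a putative peroxidase 48-like gene) had its larger change late, going from 38.1 ± 3.94 CPM to 9.68 ± 0.931 CPM (log2 fold change -1.98 ± 0.13, adjusted p = 3.17e-10) and then to 0.722 ± 0.271 CPM (-3.70 ± 0.26, adjusted p = 6.06e-10). Bhs5512_005V1.1, whose match is a bacterial-induced class III peroxidase, fell from 8.81 ± 2.88 CPM to 0.729 ± 0.397 CPM and had 1 read at 10% RWC against 188 in hydrated leaves. The lower-level genes Bhs12_006V1.1, Bhs3037_005V1.1 (peroxidase 29), Bhs5683_003V1.1 and Bhs175_011V1.1 (peroxidase 10-like) had 2.51 to 7.81 CPM in hydrated leaves, 0.439 to 3.99 CPM at 70% RWC and 0 to 1.74 CPM at 10% RWC. Bhs175_011V1.1 had 55 reads in hydrated leaves and 0 at 10% RWC, at least 18.6-fold lower when 3 reads are taken as the limit for the whole state.

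Another 5 secretory peroxidases fell by 70% RWC and were not called in the late step. Bhs16650_001V1.1 and Bhs21471_001V1.1 share the best-match text bacterial-induced peroxidase precursor, and both were near 0 from 70% RWC on. Bhs16650_001V1.1 gave 11.6, 13.5 and 11.6 CPM in hydrated leaves and 1 read in each dried state, against 265 reads in hydrated leaves. Its scaled read ratio was 0.00393 at 70% RWC, with a counting interval of 9.91e-05 to 0.0221. Bhs21471_001V1.1 fell from 6.64 ± 1.08 CPM to 0.338 ± 0.0906 CPM (log2 fold change -4.24 ± 0.36, adjusted p = 9.65e-09), and 0.411 ± 0.241 CPM was left at 10% RWC. Bhs45_173V1.1 (peroxidase 31-like), the member whose gene span equals its coding length of 981 bases, fell from 20.3 ± 4.0 CPM to 1.15 ± 0.112 CPM and stood at 1.01 ± 0.575 CPM at 10% RWC. Bhs448_019V1.1 went from 6.40 ± 1.68 CPM to 1.95 ± 0.851 and 1.95 ± 0.197 CPM, and Bhs1022_008V1.1 from 4.83 ± 1.05 CPM to 1.49 ± 0.275 and 0.815 ± 0.123 CPM. For Bhs1022_008V1.1 the dried states did not overlap, on 31 and 18 reads, and the late difference was not called (log2 fold change -0.85 ± 0.39, adjusted p = 0.0539).

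**Figure D3:**
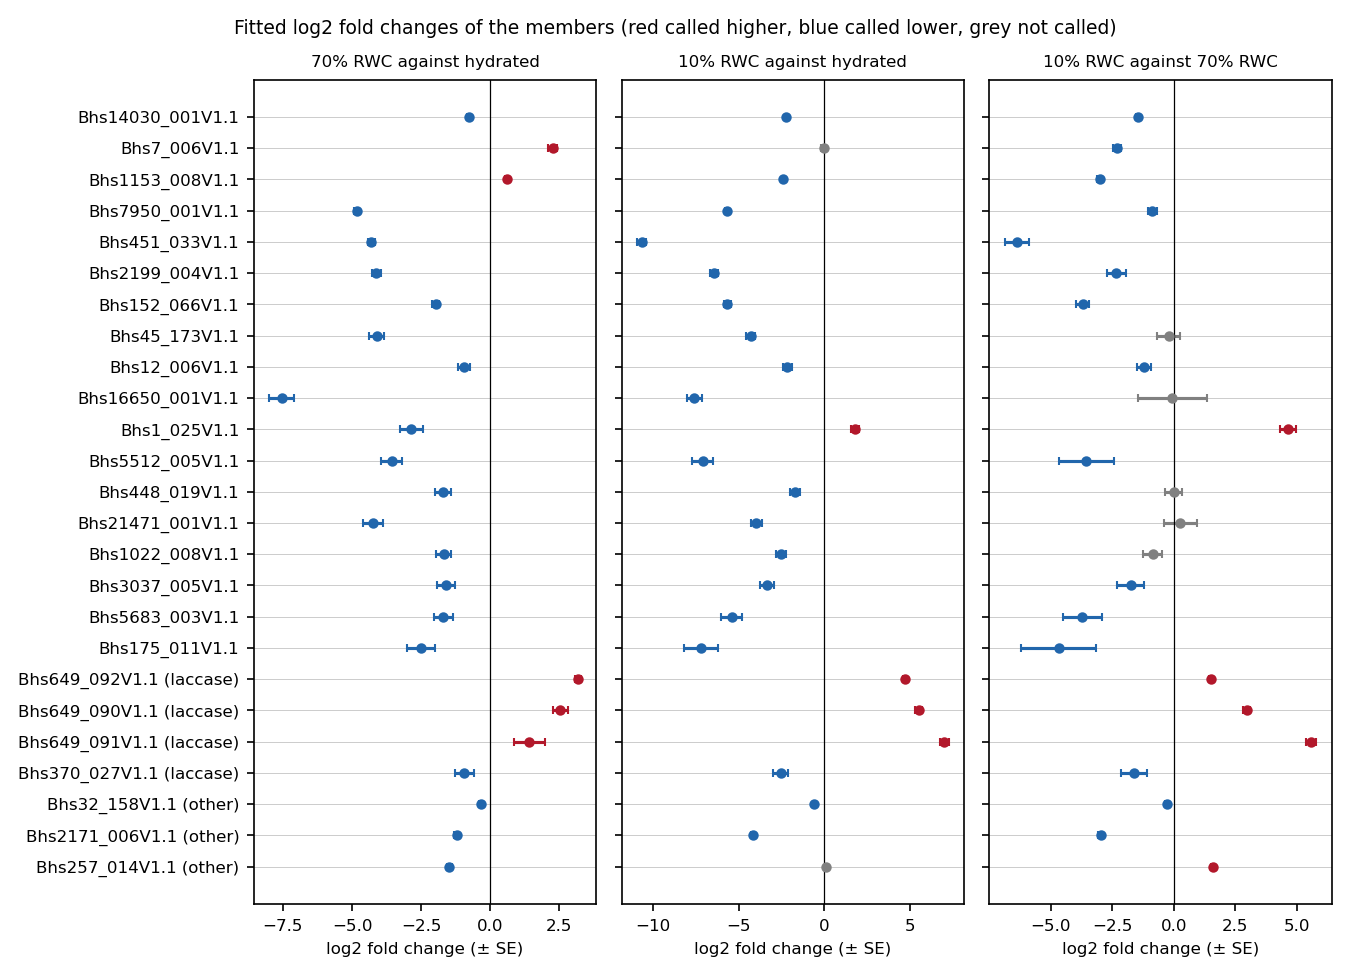
Fitted log2 fold changes (± SE) of the 25 members in the 3 comparisons, one panel each, with called increases in red, called decreases in blue and uncalled differences in grey. Of the 18 secretory peroxidases, 16 were called lower in each panel against hydrated leaves, beside 35.9% of all genes at 70% RWC and 41.5% at 10% RWC. Some of these met the read minimum through the hydrated state, which favoured such calls. Fitted values of genes with 0 or 1 read in a state depend on the prior count. The 3 Bhs649 laccases lie right of 0 in every panel, and Bhs649_091V1.1 among them met the read minimum through 10% RWC.

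The 3 remaining secretory peroxidases took other courses. Bhs7_006V1.1, second to Bhs14030_001V1.1 among the secretory peroxidases in mean CPM per kb, peaked at 70% RWC. Its libraries gave 186, 239 and 237 CPM in hydrated leaves, 864, 1127 and 1183 CPM at 70% RWC and 180, 239 and 223 CPM at 10% RWC. Replicate 1 was the lowest library in each state, and the 70% RWC libraries overlapped with neither of the other states. The gene rose 4.79-fold by 70% RWC (log2 fold change 2.26 ± 0.16, adjusted p = 4.42e-07) and fell 4.94-fold in the late step (-2.30 ± 0.16, adjusted p = 3.34e-07). Between 10% RWC and hydrated leaves the difference was not called (-0.04 ± 0.15, adjusted p = 0.798), and those states overlapped.

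Bhs1153_008V1.1 rose less and then fell below its hydrated level. It gave 71.3, 84.9 and 82.8 CPM in hydrated leaves, 113, 126 and 124 CPM at 70% RWC and 14.2, 17.5 and 13.4 CPM at 10% RWC, with no overlap between states. The increase was 1.52-fold (log2 fold change 0.60 ± 0.09, adjusted p = 6.65e-06), and the late decrease was 8.04-fold (-3.01 ± 0.10, adjusted p = 4.29e-14). Its best-match text, peroxidase, is that of several members, among them Bhs7_006V1.1, which also rose at 70% RWC, and Bhs1022_008V1.1, which fell.

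Bhs1_025V1.1, annotated as a gaiacol peroxidase after the phenol used to assay these enzymes, had the opposite course. Its libraries gave 2.81, 2.27 and 2.50 CPM in hydrated leaves, 0.139, 0.585 and 0.295 CPM at 70% RWC and 9.85, 8.97 and 7.43 CPM at 10% RWC. All 70% RWC libraries were below the hydrated ones and all 10% RWC libraries above them. The gene fell 7.21-fold by 70% RWC (log2 fold change -2.85 ± 0.43, adjusted p = 1.25e-05) on 7 reads in that state, and it was 3.44-fold above hydrated leaves at 10% RWC (1.78 ± 0.22, adjusted p = 6.18e-07). It is the secretory peroxidase called higher at 10% RWC against hydrated leaves and in the late step.

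**Figure D4:**
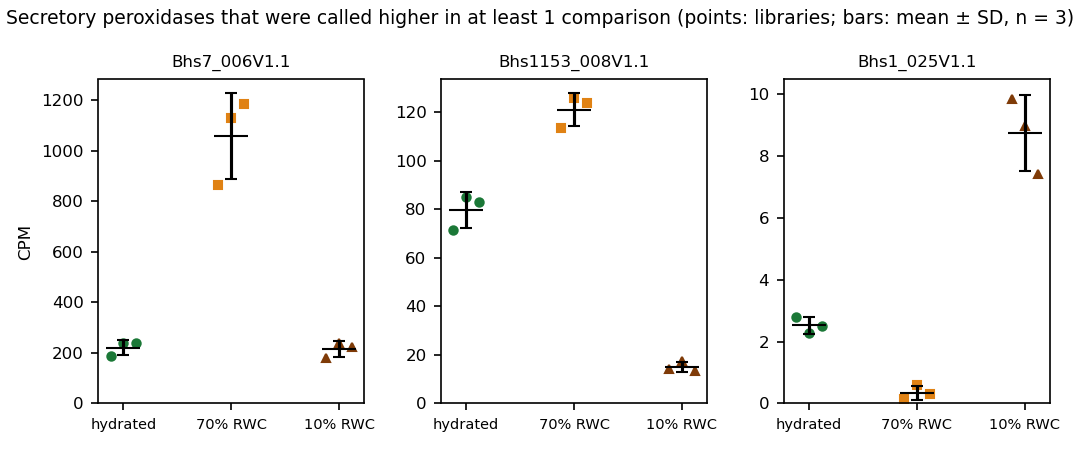
CPM of the 3 secretory peroxidases called higher in at least 1 comparison, with points for libraries and bars for the mean ± SD (n = 3) in each water state, on axes from 0. Bhs7_006V1.1 and Bhs1153_008V1.1 peak at 70% RWC (means of 1058 and 121 CPM), and Bhs1_025V1.1 is lowest there (0.340 CPM) and highest at 10% RWC (8.75 CPM).

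Of the 4 laccases, 3 were called higher in every comparison. Of all genes tested, 34.6% were higher at 70% RWC, 42.4% at 10% RWC and 37.1% in the late step. The share of all genes called higher in all 3 comparisons was not counted. The first-step call of Bhs649_091V1.1 was not stable, as given below. All 3 of these laccases lie next to each other on scaffold 649. Bhs649_090V1.1 (positions 661924 to 665211, plus strand), Bhs649_091V1.1 (669047 to 671193, minus strand) and Bhs649_092V1.1 (673867 to 676472, plus strand) carry consecutive gene numbers, with 3835 and 2673 bases between them, and all have a laccase-14 or laccase-14-like match. No other members lie within 5 gene numbers of each other. The authors counted uniquely aligned reads, so reads shared between near-identical copies are missing and the values of these genes are uncertain to that extent.

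Bhs649_092V1.1 was the highest of the run, with 52.6, 48.1 and 50.9 CPM in hydrated leaves, 400, 490 and 484 CPM at 70% RWC and 1142, 1382 and 1381 CPM at 10% RWC. The states did not overlap. It rose 9.06-fold by 70% RWC (log2 fold change 3.18 ± 0.10, adjusted p = 2.54e-14) and 25.7-fold by 10% RWC (4.69 ± 0.10, adjusted p = 1.74e-16). On the CPM per kb scale its level at 10% RWC, 769 ± 81.7, was second among the members to Bhs14030_001V1.1 with 1803 ± 74.7.

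The other genes of the run started near 0 and rose later. Bhs649_090V1.1 gave 1.15, 0.568 and 1.18 CPM in hydrated leaves, 6.68, 5.27 and 5.15 CPM at 70% RWC and 41.4, 50.1 and 42.1 CPM at 10% RWC. It was 45.2-fold higher at 10% RWC than in hydrated leaves (log2 fold change 5.50 ± 0.20, adjusted p = 3.48e-14). Bhs649_091V1.1 gave 0.255, 0.284 and 0.294 CPM in hydrated leaves, 0.974, 0.878 and 0.442 CPM at 70% RWC and 35.3, 43.2 and 35.0 CPM at 10% RWC. Its increase from 70% to 10% RWC was 48.1-fold (5.59 ± 0.21, adjusted p = 1.26e-13), from 16 reads to 832. With 6 reads in hydrated leaves, Bhs649_091V1.1 met the read minimum only through 10% RWC, the state where it is high. For this gene the rule itself favoured higher calls at 10% RWC.

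At 70% RWC, Bhs649_092V1.1 stood at 35.2% of its 10% RWC level, Bhs649_090V1.1 at 12.8% and Bhs649_091V1.1 at 2.02%. The first-step increase of Bhs649_091V1.1 (log2 fold change 1.42 ± 0.56, adjusted p = 0.0344) rests on 6 and 16 reads, and its call ended under 9 of 18 alternatives, with adjusted p from 0.0165 to 0.197. These included replicates 2 and 3 alone and the fits without hydrated replicate 1, 2 or 3 and without replicate 1 or 2 of 70% RWC.

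**Figure D5:**
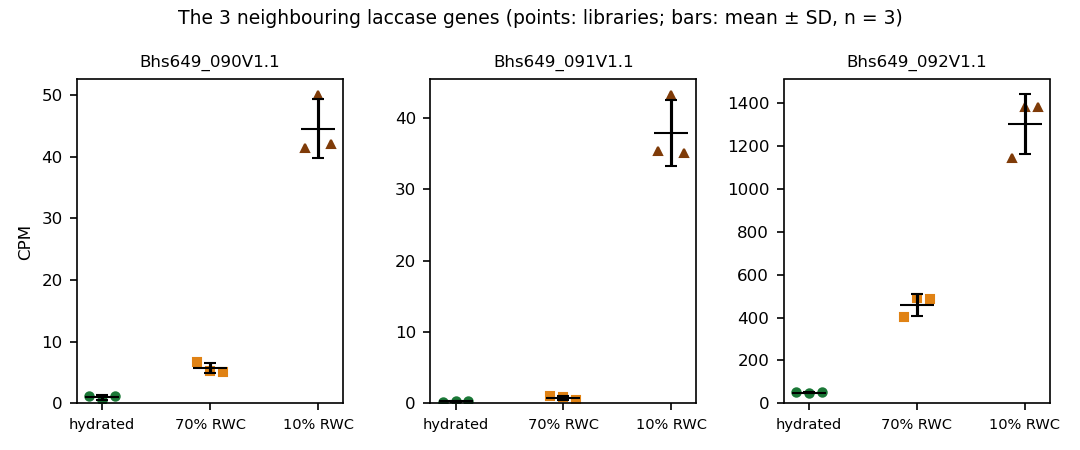
CPM of the 3 neighbouring laccase genes in each library (points) with the mean ± SD (bars, n = 3) by water state, on axes from 0. All rise towards 10% RWC, and at 70% RWC Bhs649_092V1.1 already has 35.2% of its 10% RWC level against 2.02% for Bhs649_091V1.1.

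The fourth laccase, Bhs370_027V1.1, a laccase precursor by its match with GO terms of lignin metabolism and the extracellular region, went the other way. Its libraries gave 1.53, 2.98 and 2.21 CPM in hydrated leaves, 1.25, 1.02 and 1.18 CPM at 70% RWC and 0.399, 0.140 and 0.540 CPM at 10% RWC. It fell 5.88-fold by 10% RWC (log2 fold change -2.56 ± 0.46, adjusted p = 5.33e-05). The decrease at 70% RWC (-0.93 ± 0.36, adjusted p = 0.0277) was no longer called under 6 of 19 alternatives, with adjusted p from 0.00933 to 0.150, among them the fits without hydrated replicate 2 or 3 and without replicate 2 or 3 of 70% RWC. Just under the read minimum, the laccase-1-like gene Bhs1716_011V1.1 had 53 of its 54 reads in hydrated leaves, and just inside it Bhs175_011V1.1 had 64. All 17 genes under the minimum together held 146 reads in hydrated leaves, 33 at 70% RWC and 9 at 10% RWC.

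Of the 3 members that are not secretory by their texts, 2 fell in every comparison and the other fell at 70% RWC only. Glutathion peroxidase Bhs2171_006V1.1, of a family that reduces lipid hydroperoxides, fell from 251 ± 7.94 CPM to 108 ± 3.76 CPM at 70% RWC and 13.6 ± 2.36 CPM at 10% RWC (log2 fold change -4.20 ± 0.09 against hydrated leaves, adjusted p = 5.20e-17). Thioredoxin-dependent peroxidase Bhs32_158V1.1, a thiol enzyme that removes peroxides inside the cell, changed least among the members called in all comparisons, from 145 ± 9.99 CPM to 116 ± 10.4 and 96.5 ± 5.38 CPM. Its log2 fold change at 10% RWC was -0.59 ± 0.08 (adjusted p = 1.84e-06). Bhs257_014V1.1 had 48.3 ± 2.85 CPM in hydrated leaves, 17.3 ± 1.25 CPM at 70% RWC and 52.1 ± 1.11 CPM at 10% RWC, lower and then higher in the late step (1.59 ± 0.09, adjusted p = 4.92e-11). Which part of that gene model its reads come from was not tested. Without these 3 genes, 5 members were higher and 17 lower at 70% RWC, and 4 were higher and 17 lower at 10% RWC.

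The text rule leaves out genes whose KEGG text is peroxidase but whose match has another name. Whether they are peroxidases was not tested. Among 8 genes with the peroxidase KEGG text and no such word in their match, 2 had at least 60 reads. Bhs2813_005V1.1, a hypothetical protein by its match, had 4.39 CPM in hydrated leaves, 0 reads at 70% RWC and 0.949 CPM at 10% RWC. Bhs4_057V1.1, which is named after the chloroplast import protein TIC 55, had 412, 282 and 517 CPM in the same order.

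The counts of the gene lists that follow stand beside the same shares of all genes tested, 34.6% higher and 35.9% lower at 70% RWC, 42.4% and 41.5% at 10% RWC, and 37.1% and 39.6% in the late step. The monolignol synthesis list, whose enzymes lead from phenylalanine to the lignin alcohols that peroxidases and laccases oxidise, had 3 higher and 25 lower of 35 tested at 70% RWC and 3 higher and 29 lower at 10% RWC, with medians of -1.64 and -3.52 log2 units. In the late step 7 were higher and 24 lower, with a median of -2.14. Its entry enzyme, the phenylalanine ammonia-lyase gene Bhs160_034V1.1, had 7.59 ± 1.97 CPM at 10% RWC against 894 ± 44.5 CPM in hydrated leaves (log2 fold change -6.87 ± 0.12, adjusted p = 1.69e-17). A hydroxycinnamoyltransferase gene, Bhs42636_001V1.1, of the type that passes p-coumaroyl groups on to shikimate or quinate, fell from 2154 ± 246 CPM to 897 ± 146 and 59.7 ± 5.40 CPM (log2 fold change at 10% RWC -5.17 ± 0.14, adjusted p = 1.96e-12).

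The secondary wall list (fasciclin-like, COBRA, xylem protease and xylem cellulose synthase genes) had 2 higher and 12 lower of 16 tested at 70% RWC, 2 and 13 at 10% RWC, and 1 and 12 in the late step. Its COBRA gene Bhs20_063V1.1, of a family that orients cellulose in Arabidopsis, fell from 216 ± 15.7 to 40.3 ± 6.07 and 13.2 ± 0.178 CPM. COBRA-like 7 gene Bhs787_008V1.1 rose from 32.7 ± 4.56 to 115 ± 6.87 CPM at 70% RWC and had 99.4 ± 9.64 CPM at 10% RWC. The search words took in any COBRA gene, and whether those named here serve secondary walls was not tested. The dirigent and Casparian strip list had 3 genes with a read and 0 with enough reads to be tested.

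Sources of hydrogen peroxide (NADPH oxidases, germin-like proteins, amine oxidases and superoxide dismutases, some of them in plastids) showed 7 higher and 9 lower of 21 tested at 70% RWC, 5 and 13 at 10% RWC, and 5 and 11 in the late step. At 70% RWC these shares lie near those of all genes, and the median log2 fold change of the list was 0.01, beside -0.01 over all genes. Carbohydrate-related genes had entered through the search letters, and without them the counts were 5 and 7 of 17, 3 and 11, and 5 and 9. Copper amine oxidase Bhs1029_007V1.1 fell from 1067 ± 55.9 to 176 ± 4.40 and 94.6 ± 7.0 CPM. Germin-like gene Bhs2_084V1.1 was higher at 10% RWC (798 ± 172 CPM) than in hydrated leaves (384 ± 84.7 CPM, log2 fold change 1.05 ± 0.25, adjusted p = 0.00536).

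The other multicopper oxidases, relatives of the laccases, had 1 higher and 6 lower of 8 tested at 70% RWC, 2 and 6 at 10% RWC, and 3 and 4 in the late step. Ascorbate oxidase Bhs1_013V1.1, a wall enzyme that oxidises ascorbate, peaked at 70% RWC, with 26.5 ± 2.28, 98.3 ± 11.6 and 5.05 ± 1.11 CPM in the order of drying. Its homolog Bhs3417_002V1.1 rose late, from 9.24 ± 2.30 CPM at 70% RWC to 72.4 ± 6.28 CPM at 10% RWC (log2 fold change 2.96 ± 0.14, adjusted p = 5.18e-12). The suberin and cutin list had 3 higher and 7 lower of 13 tested at 70% RWC, 2 and 8 at 10% RWC, and 5 and 4 in the late step. The search words took in any glycerol-3-phosphate acyltransferase, and whether those named here serve suberin or cutin was not tested. Acyltransferase Bhs1246_006V1.1 rose from 92.5 ± 1.85 to 199 ± 17.3 and 264 ± 19.4 CPM. The acyltransferase 6 gene Bhs3283_030V1.1 fell from 233 ± 15.7 to 1.35 ± 0.113 and 1.04 ± 0.137 CPM.

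Markers of leaf cell types moved in the same comparisons. Light-harvesting genes, which mark leaf mesophyll, summed to 21190 to 27548 CPM over 7 genes in hydrated libraries, with 0 of them at 0 reads in any state, and fell to 2077 to 2585 CPM at 70% RWC and 633 to 763 CPM at 10% RWC (7 of 7 lower in each comparison). The list's other 4 genes, with early light-inducible texts, were higher in each comparison. Epidermis and cuticle markers went from 651 to 739 CPM over 15 genes in hydrated libraries to 93.5 to 95.6 and 38.7 to 49.4 CPM, and 1, 2 and 1 of them had 0 reads in the 3 states in the order of drying. Of 9 tested, 1 was higher and 6 were lower at 70% RWC, 1 and 7 at 10% RWC, and 3 and 4 in the late step. Guard cell markers (MYB60, FAMA and SLAC1) had 34.8 to 40.2, 14.4 to 15.9 and 6.66 to 8.51 CPM, with 3 of 3 lower in both drying states against hydrated leaves, 1 higher and 2 lower in the late step, and none at 0 reads. Markers of xylem, where lignin is laid down, summed to 153 to 164, 53.9 to 59.95 and 28.6 to 34.6 CPM over 4 genes, none at 0 reads. The secondary wall list also holds all of them. At 70% RWC 0 were higher and 3 lower, and 1 was higher and 3 were lower at 10% RWC and in the late step. Phloem markers (3 of the 4 genes sucrose transporters) had 66.9 to 70.5, 1342 to 1464 and 1680 to 1850 CPM, with none at 0 reads. The 3 of them that were tested were higher in both drying states against hydrated leaves, and 2 were higher and 1 lower in the late step. The list for dividing cells (28 genes of cyclins, cyclin-dependent kinases, their inhibitors and histone H4, with 0, 3 and 4 at 0 reads) gave 472 to 497, 486 to 500 and 981 to 1003 CPM. Of its 24 tested genes, 5 were higher and 11 lower in both drying states against hydrated leaves, and 7 were higher and 10 lower in the late step. The single root hair gene, higher at 10% RWC against both other states, gave 220 to 224, 214 to 242 and 485 to 517 CPM. The part of these cell types in the peroxidase and laccase values was not tested.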

How the data were processed

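RNA from leaf tissue in 3 water states with 3 libraries each was extracted with Trizol and sequenced from Illumina libraries, per the labels' protocols. Per the file headers, the authors deposited a count of uniquely aligned reads per gene, with the gene's length. Aligner, assembly version, counting tool and strandedness are not given in the sources used here. A gene missing from a library's file was given 0 reads. Counts summed to the header total in 9 of 9 files. Lengths are coding lengths (100% are multiples of 3), and without stated strand use antisense reads cannot be told apart. No member overlaps another gene model with a read. The authors' deposited table of comparisons was not used.

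The quasi-likelihood test of edgeR 4.0.16 was run on the counts in R 4.3.3 (robust fit, filterByExpr, TMM scaling, all 9 libraries, 1 mean per state, no block). All 25 members and 1 of the 17 genes under the read minimum passed the filter. Alternatives used DESeq2 1.42.0, other scalings, filters, member rules and left-out libraries, and the fit was tested on simulated data. The SE is the log2 fold change divided by the square root of F. Folds against 0 reads use 3 reads over the group, and 1 to 3 reads give an exact 95% binomial interval. Limits and intervals of this kind take in counting error alone, as no molecular identifiers tell PCR copies apart.

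Members and lists (search words in the best-match text) were chosen with earlier results of these data known. Named members are the 10 with the highest CPM per kb, up to 5 called increases and 5 called decreases per comparison with at least 5 CPM in the higher state, laccases of that level, and runs of at least 3 neighbouring members. From each pathway list the 2 genes with the highest mean CPM that were called with at least a 2-fold change are named. Members outside these rules (Bhs12_006V1.1, Bhs45_173V1.1, Bhs448_019V1.1, Bhs3037_005V1.1, Bhs1022_008V1.1, Bhs370_027V1.1, Bhs5683_003V1.1 and Bhs175_011V1.1), genes under the read minimum and the genes with only the KEGG text were added after their values were seen.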

Additional observations from a re-analysis of the deposited data

How the results depend on the processing

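The 6 counts of called members stayed within 1.5 times their value under all alternatives run (138 of 138 values). At 70% RWC they ranged from 4 to 5 higher and 14 to 20 lower, at 10% RWC from 4 to 4 and 13 to 19, and in the late step from 4 to 5 and 11 to 16, with the lowest counts of lower members from the minimum of 200 reads (in the late step also from fitting 10% and 70% RWC alone). Of 1416 fold changes of single members, none reversed, 17 lost and 3 gained their call, and 70 of 75 kept their call throughout. The other 3 changes of call were in the late step: Bhs1022_008V1.1 (adjusted p = 0.0539) gained it under RLE scaling and without hydrated replicate 3 or 70% RWC replicate 2, Bhs175_011V1.1 (adjusted p = 0.0109) lost it without 70% RWC replicate 3, and Bhs32_158V1.1 (adjusted p = 0.00616) with replicates 2 and 3 summed. With library totals the median log2 fold change of all genes at 70% RWC shifted by -0.10. List counts kept to 1.5 times in 684 of 690 values. With the replicate number as a block, 5 and 20, 4 and 19, and 5 and 15 members were called. Numbers were not taken as pairs, since the deviations of same-numbered libraries had r from 0.0694 to 0.293, over 0.1 in all pairs of hydrated and 70% RWC only. The highest values were those of replicate 1 with replicate 1, from 0.238 to 0.293. Replicate 1 with another number had r from -0.217 to -0.102. Replicate 2 with replicate 3 of another state had 0.0479 to 0.141. Replicate 1 thus stood apart in a like way in all states, and the main fit has no term for it. Without a low-count filter and with DESeq2 the first-step call of Bhs649_091V1.1 was lost as well.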
